A study of Mus musculus with 10 samples.

Results

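The genes of the glutamatergic synapse between cochlear hair cells and auditory neurons were followed here in RNA of the whole cochlea, taken from mtKeima mice aged 12 months. The 10 genes were chosen by their names from the 54532 genes in the count tables, by a rule that uses no measured value, though earlier results of these data were known: otoferlin (Otof), Ctbp2, the vesicular glutamate transporter (VGLUT) genes Slc17a8, Slc17a7 and Slc17a6, the calcium-binding protein genes Cabp1 and Cabp2, and the active zone genes Rims2, Bsn and Pclo. The NR-treated group was 5 mice that drank nicotinamide riboside (NR), a precursor of NAD+, at 7 mg/ml (24 mM) in their water from 2 to 12 months of age, which is 10 months of treatment. The non-treated group, called Vehicle here, was 5 mice of the same age that drank regular water. All 10 mice were of the mtKeima strain, a wild-type strain with a reporter of mitophagy, so that both groups carried the reporter. The labels give each library as 1 replicate and its sex as female, whereas the methods describe males. All 10 libraries held 2 to 8 reads of Xist and 1235 to 1928 reads of the Y-linked gene Ddx3y, which goes against the label.

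At the ribbon synapse, an inner hair cell releases glutamate onto the fibre of a spiral ganglion neuron continuously and in proportion to sound. Synaptic vesicles are held on an electron-dense ribbon built of RIBEYE, a product of Ctbp2, which Bassoon (the product of Bsn) anchors at the active zone. Piccolo (Pclo) is a further scaffold protein of active zones. Calcium enters through CaV1.3 channels, which RIM2 (Rims2) helps to gather and which the CaBP proteins keep from inactivating, and otoferlin is the calcium sensor of vesicle fusion. Hair cells fill their vesicles with VGLUT3 (Slc17a8), whereas spiral ganglion neurons carry VGLUT1 (Slc17a7) and VGLUT2 (Slc17a6) to their endings in the brainstem. Bassoon, Piccolo, RIM2 and CaBP1 are also found at synapses of many neurons, so that RNA of these genes in the whole cochlea is not that of hair cells alone.

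The starts of these genes differ in base composition, and the 250 bases before 1 start are printed for 4 of them as examples. RefSeq promoters (GRCm38.p6) were matched for 8 of the 10 genes, with 13 starts in all, and none was matched for Otof or Rims2. Capitals mark each CG pair. Pclo and Slc17a6, on which the comparison of the groups turned, had 25 and 7 CG pairs at the starts shown, and the hair cell genes Slc17a8 and Cabp2 had 5 and 4.
Pclo, chr5:14514668-14514917, plus strand: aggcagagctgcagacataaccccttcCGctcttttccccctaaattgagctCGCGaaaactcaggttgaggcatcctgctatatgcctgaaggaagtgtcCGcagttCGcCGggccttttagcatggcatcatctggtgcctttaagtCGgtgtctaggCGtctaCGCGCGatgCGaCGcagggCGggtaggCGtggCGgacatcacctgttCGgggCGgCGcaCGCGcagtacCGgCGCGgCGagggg
Slc17a6, chr7:51621580-51621829, plus strand: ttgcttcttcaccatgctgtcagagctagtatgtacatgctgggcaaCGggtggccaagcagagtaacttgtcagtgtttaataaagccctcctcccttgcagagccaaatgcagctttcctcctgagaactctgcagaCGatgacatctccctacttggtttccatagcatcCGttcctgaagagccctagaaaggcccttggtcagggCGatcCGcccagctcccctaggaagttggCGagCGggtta
Slc17a8, chr10:89621250-89621499, minus strand: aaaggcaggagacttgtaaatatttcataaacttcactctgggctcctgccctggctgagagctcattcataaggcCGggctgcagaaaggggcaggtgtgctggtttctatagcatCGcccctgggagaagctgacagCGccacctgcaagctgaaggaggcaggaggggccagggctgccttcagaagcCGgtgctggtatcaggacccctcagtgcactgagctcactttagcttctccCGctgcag
Cabp2, chr19:4082238-4082487, plus strand: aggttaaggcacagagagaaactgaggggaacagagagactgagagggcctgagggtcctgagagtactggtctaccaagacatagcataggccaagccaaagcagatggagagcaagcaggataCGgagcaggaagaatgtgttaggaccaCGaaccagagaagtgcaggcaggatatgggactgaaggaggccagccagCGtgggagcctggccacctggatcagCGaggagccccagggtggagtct
The median of all 32851 RefSeq promoters of this length was 6 CG pairs, and 89.3% of them had fewer than Pclo, 53.7% fewer than Slc17a6, 44.4% fewer than Slc17a8 and 37.8% fewer than Cabp2. The start of Bsn was richer still, with 32 CG pairs, above 95.4% of promoters. It was the highest of the 13 starts, and the first start of Ctbp2 was the lowest, with 2 CG pairs. The second starts of Slc17a6 and Slc17a8, not printed, had 3 CG pairs each.

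Ctbp2 (chr7:132987563-133124354, minus strand, GRCm38) makes the transcriptional corepressor CtBP2 from one start and the ribbon protein RIBEYE from another, and the windows before both RefSeq starts are printed because the counts sum over all of its starts. Capitals mark the letters TATAAA on either strand.
Ctbp2, first start, chr7:133081861-133082110, minus strand: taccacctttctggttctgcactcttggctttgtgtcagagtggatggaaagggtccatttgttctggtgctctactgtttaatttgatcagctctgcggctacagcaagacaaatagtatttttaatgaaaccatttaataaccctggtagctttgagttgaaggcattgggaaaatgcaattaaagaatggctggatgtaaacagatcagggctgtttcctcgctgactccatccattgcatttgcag
Ctbp2, second start, chr7:133015248-133015497, minus strand: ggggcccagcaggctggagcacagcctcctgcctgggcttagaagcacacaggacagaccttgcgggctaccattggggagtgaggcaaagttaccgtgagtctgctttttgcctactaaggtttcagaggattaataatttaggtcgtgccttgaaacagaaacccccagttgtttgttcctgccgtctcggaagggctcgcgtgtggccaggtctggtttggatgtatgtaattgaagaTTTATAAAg
The window of the second start adjoins the first base of the annotated transcript Ctbp2-214, which has 988 codons, the length class of RIBEYE. The capitals there hold TATAAA on both strands in overlapping letters, 7 and 9 bases before the start, whereas the first start has no match, and 12.4% of all promoters hold these letters. Searches on both strands for CAGCTG (in 13% of promoters), AATTAAT (2.46%) and TTCAGCACC (0.301%) gave 1 match among the 13 starts, of AATTAAT at the second start of Slc17a6. The transcript Ctbp2-201, with 445 codons, begins at chr7:133123367, away from both windows, so that no window before the start of this product is shown. Of its 2321 bases, 1830 (78.8%) are shared with Ctbp2-214, which is 3604 bases long, so a value for Ctbp2 below is the sum over both products.

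The libraries held 17060379 to 22931581 counted reads in NR-treated mice and 20004667 to 24419230 in Vehicle, and all 10 genes passed the filter on low counts, with at least 83 reads in any mouse. Markers of the tissue were present in every library, and 3 mice stood apart in their hair cell markers: NR 2, Vehicle 3 and Vehicle 4. By a chi-square per gene between libraries, given with the processing below, Vehicle 2 was the farthest from the rest. Over 20 hair cell markers, the mean log2 CPM (reads of a gene per 1000000 reads of the library, scaled by TMM factors) was 3.94, 4.26 and 4.49 in these mice and 3.20 to 3.54 in the other 7. Over 12 markers of supporting cells and the tectorial membrane it was 6.55, 7.17 and 7.22 against 5.64 to 6.19, and over 18 markers of spiral ganglion neurons it was lowest in Vehicle 3 (7.00) and Vehicle 4 (7.08) and 7.41 to 7.89 in the rest. The most counted markers included Atp2b2 and Ush1c for hair cells, Gjb2, Gjb6 and Otog for supporting cells, and Calb2, Nefh and Nefm for the neurons. By group, the neuron markers averaged 7.71 ± 0.14 (SD, n = 5) in NR and 7.32 ± 0.26 in Vehicle, and the hair cell markers 3.49 ± 0.27 and 3.74 ± 0.59. Summed CPM of the neuron markers overlapped, at 7650.3 to 8558 in NR and 5945 to 8928 in Vehicle, where Vehicle 5 was the highest of all mice. Among the 18 neuron markers, Prph ranged from 3.51 to 147 CPM in NR and from 2.0 to 118 CPM in Vehicle, and its weight in the mean was not tested. Among the 20 hair cell markers, Slc26a5 ranged from 0.305 to 2.05 CPM in NR. In Vehicle it ranged from 0.0463 to 5.61 CPM, and its weight in the hair cell mean was not tested either. Adipocyte markers (Fabp4, Cfd and Adipoq most counted) summed to 67.0 to 198 CPM in NR and 16.7 to 62.5 CPM in Vehicle, and skeletal muscle markers (Acta1, Myh1 and Des most counted) to 12.8 to 743 CPM and 12.8 to 65.8 CPM, and the part of these 2 lists in the results below was not tested. Markers of central neurons, which also use VGLUT1 and VGLUT2, were low: 3 of 8 passed the filter, and those 3 summed to 15.9 to 30.2 CPM in NR and 15.4 to 22.7 CPM in Vehicle. Markers of central glia (Gfap, Mobp and Aqp4 most counted) summed to 421 to 647 CPM in NR and 518 to 661 CPM in 4 of the Vehicle mice, with Vehicle 1 apart at 168 CPM. In whole tissue, fewer cells of a type and less RNA per cell cannot be told apart.

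Per kilobase of gene length, Slc17a7 was by far the most abundant of the 10 genes. In the order of the Vehicle means, in CPM per kilobase, Slc17a7 stood at 67.8 ± 17.3 (SD, n = 5) and was followed by Cabp2 at 21.0 ± 8.99, Cabp1 at 19.6 ± 3.57, Otof at 15.5 ± 8.94 and Slc17a6 at 14.0 ± 3.85. The ranges of these 4 followers overlapped between neighbours, so their order is not resolved, whereas Slc17a7 lay above them in every Vehicle mouse. A lower step held Ctbp2 at 5.04 ± 0.860 and Bsn at 4.55 ± 0.798, and the lowest held Slc17a8 at 1.66 ± 1.02, Rims2 at 1.42 ± 0.152 and Pclo at 1.11 ± 0.102, again with overlap between neighbours within a step and none between steps. In NR-treated mice Slc17a7 was again first, at 58.7 ± 8.56 CPM per kilobase, while Slc17a6, at 20.4, stood above Cabp2 and Otof, and Slc17a8 was last at 1.31. VGLUT3 RNA was thus a small share of VGLUT RNA in the whole cochlea: per length, Slc17a8 was 2.79% ± 2.19 of Slc17a7 in Vehicle and 2.18% ± 0.984 in NR. Otof exceeded Slc17a8 per length by 5.56 to 11.4 times over the 10 mice.

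**Figure D1:**
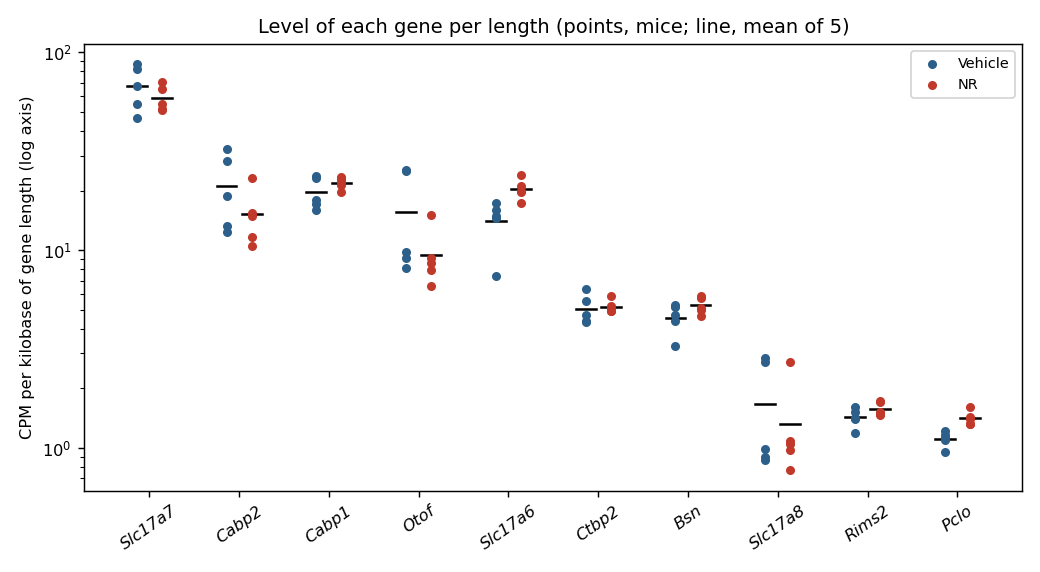
Level of each of the 10 genes in CPM per kilobase of gene length on a log axis, ordered by the Vehicle mean, with 1 point a mouse (5 Vehicle, 5 NR) and a line at each mean. Slc17a7 stands alone at the top, Cabp2, Cabp1, Otof and Slc17a6 form the next step, and Slc17a8, Rims2 and Pclo the lowest.

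The 3 genes that are most particular to hair cells, Slc17a8, Otof and Cabp2, varied widely within both groups, and their groups overlapped. Slc17a8 (chr10:89574020-89621253) had 4.97, 12.7, 4.59, 3.62 and 5.08 CPM in NR 1 to 5 and 4.64, 4.25, 12.8, 13.4 and 4.07 CPM in Vehicle 1 to 5. The 3 mice with many hair cell markers, 1 treated and 2 not, were at 12.7 to 13.4 CPM, and the other 7 lay between 3.62 and 5.08 CPM with the groups overlapping. Its log2 fold change, NR over Vehicle, was -0.36 (SE 0.45, 95% interval -1.34 to 0.63), with an edgeR adjusted p of 0.801.

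Otof (chr5:30367062-30461932) had 52.0, 119, 72.0, 67.7 and 62.7 CPM in NR 1 to 5 and 71.6, 63.9, 199, 201 and 77.5 CPM in Vehicle 1 to 5. The same 3 mice were highest, and the groups overlapped. The group means were 74.6 ± 25.7 (SD, n = 5) and 122 ± 70.6 CPM, and the log2 fold change was -0.73 (SE 0.36, interval -1.53 to 0.067, unadjusted p 0.0687, adjusted p 0.542). Cabp2 (chr19:4081578-4087340), whose product slows the inactivation of the calcium channel in inner hair cells, had 14.2, 31.4, 20.1, 15.8 and 20.8 CPM in NR and 25.3, 16.8, 44.0, 37.9 and 18.0 CPM in Vehicle. It was again highest in Vehicle 3, Vehicle 4 and NR 2, with a log2 fold change of -0.49 (SE 0.29, interval -1.14 to 0.16, adjusted p 0.615).

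These 3 fold changes depended on which of the mice with many hair cell markers were kept. Without Vehicle 3 and Vehicle 4 the log2 fold change was 0.51 for Slc17a8, 0.057 for Otof and 0.018 for Cabp2. Without NR 2 as well it was 0.075, -0.16 and -0.18, so that the sign was turned for Slc17a8 alone, and none of these 6 values had an unadjusted p under 0.174. With the mean of the hair cell markers as a covariate, Otof was at -0.24 (unadjusted p 0.0108, adjusted p 0.451), Cabp2 at -0.17 (unadjusted p 0.238) and Slc17a8 at 0.16 (unadjusted p 0.407). With the mean of the neuron markers as a covariate instead, the values were 0.50 for Otof, 0.30 for Cabp2 and 1.10 for Slc17a8 (unadjusted p 0.00656, adjusted p 0.212). The neuron marker mean itself differed between the groups (7.71 in NR and 7.32 in Vehicle, exact permutation p 0.0238). It was lowest in Vehicle 3 and Vehicle 4. Fits with this covariate, here and below, therefore cannot separate it from the group. The sign of each of the 3 genes was turned by at least 2 of these 4 settings. Leaving out 1 mouse at a time turned the sign of none of them. The log2 fold change was then -0.95 to -0.48 for Otof (edgeR unadjusted p 0.0279 to 0.204) and -0.68 to -0.26 for Cabp2 (0.0395 to 0.36). For Slc17a8 it was -0.78 to -0.072 (0.0822 to 0.876).

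**Figure D2:**
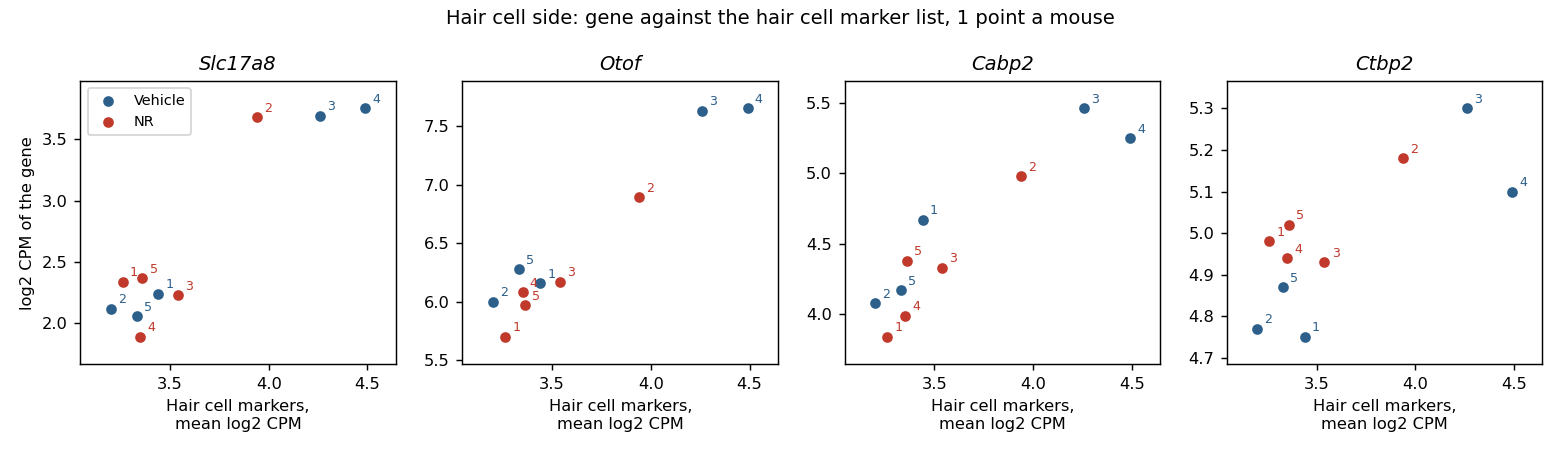
Log2 CPM of Slc17a8, Otof, Cabp2 and Ctbp2 against the mean log2 CPM of 20 hair cell markers, with 1 point a mouse and its replicate number (red NR, blue Vehicle). NR 2, Vehicle 3 and Vehicle 4 form a separate group at the right, between 3.94 and 4.49 on the marker axis, and hold the highest values of all 4 genes.

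Ctbp2, summed over CtBP2 and RIBEYE, varied less within the groups than Slc17a8, Otof and Cabp2, with coefficients of variation of 7.36% in NR and 17.1% in Vehicle. It had 31.5, 36.2, 30.4, 30.5 and 32.3 CPM in NR 1 to 5 and 26.8, 27.2, 39.4, 34.2 and 29.2 CPM in Vehicle 1 to 5, so that NR lay within the range of Vehicle. The log2 fold change was 0.024 (SE 0.11, interval -0.21 to 0.25, adjusted p 0.954), and with the neuron markers as a covariate it was 0.34 (unadjusted p 0.00252, adjusted p 0.152). Without Vehicle 3 and Vehicle 4 it was 0.20 (unadjusted p 0.0206, adjusted p 0.406), and without NR 2 as well 0.17 (unadjusted p 0.0325). Over its exons, 314 bases (5.05%) are shared with Fgfr2, and reads there can be dropped as ambiguous.

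**Figure D3:**
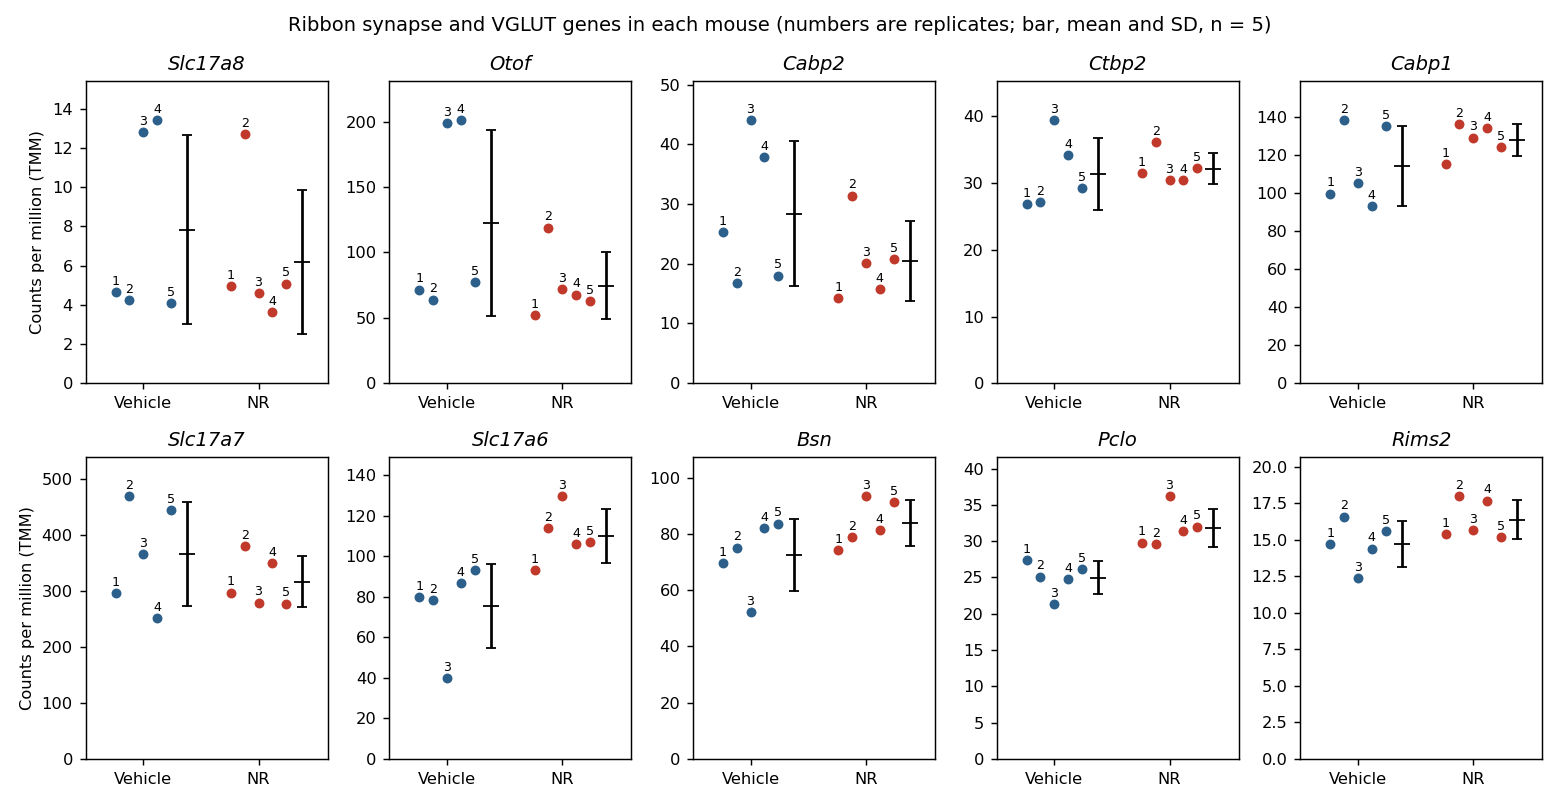
CPM of the 10 genes in each mouse, scaled by TMM factors and numbered by replicate, with the mean and SD of 5 mice beside each group. Slc17a8, Otof and Cabp2 are highest in Vehicle 3, Vehicle 4 and NR 2, and for Slc17a6 and Pclo every NR-treated mouse is above every Vehicle mouse.

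Of the transporters of the neurons, VGLUT2 RNA was higher in every NR-treated mouse than in any Vehicle mouse, whereas VGLUT1 RNA overlapped between the groups and was lower on average in NR. Slc17a6 (chr7:51622006-51671119) had 93.3, 114, 129.7, 106 and 107 CPM in NR 1 to 5 and 79.9, 78.4, 40.0, 86.6 and 93.2 CPM in Vehicle 1 to 5. All 5 NR-treated mice were above all 5 Vehicle mice, but NR 1 (93.3 CPM) and Vehicle 5 (93.2 CPM) were barely apart, and Vehicle 3 was far below the rest of its group. The means were 109.9 ± 13.3 (SD, n = 5) and 75.6 ± 20.8 CPM and the log2 fold change 0.52 (SE 0.19, interval 0.10 to 0.94, unadjusted p 0.0189, adjusted p 0.463), and the exact two-sided permutation p was 0.00794, the smallest that 5 against 5 mice can give. Without Vehicle 3 and Vehicle 4 it was 0.38 (unadjusted p 0.0038), and with the neuron markers as a covariate 0.18 (unadjusted p 0.48).

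Slc17a7 (chr7:45163949-45176142) had 297, 380.1, 279, 350 and 277 CPM in NR 1 to 5 and 296, 469, 365, 252 and 444 CPM in Vehicle 1 to 5. Vehicle held both the highest and the lowest mouse. The log2 fold change was -0.22 (SE 0.17, interval -0.58 to 0.14, adjusted p 0.678), and it was -0.36 without Vehicle 3 and Vehicle 4 (unadjusted p 0.0489) and -0.43 without NR 2 as well (unadjusted p 0.0282). Leaving out 1 mouse at a time gave -0.32 (without Vehicle 4, edgeR unadjusted p 0.0507) to -0.1 (without Vehicle 2, edgeR unadjusted p 0.534). The ratio of VGLUT2 to VGLUT1 RNA per length was set side by side after the values of both genes had been seen, so it is given without a test. Slc17a6 was 31.3, 29.9, 46.4, 30.3 and 38.6% of Slc17a7 in NR 1 to 5 and 27.0, 16.7, 10.9, 34.3 and 21.0% in Vehicle 1 to 5. Vehicle 4 was above 3 of the NR-treated mice, and the means were 35.3% ± 7.17 and 22.0% ± 9.04.

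Among the active zone genes, Pclo had the smallest p-value. Pclo (chr5:14514918-14863459), which encodes the scaffold Piccolo, had 29.8, 29.6, 36.2, 31.4 and 32.0 CPM in NR 1 to 5 and 27.4, 25.1, 21.3, 24.8 and 26.1 CPM in Vehicle 1 to 5. Every NR-treated mouse was above every Vehicle mouse, with 29.6 CPM as the lowest treated and 27.4 CPM as the highest non-treated value. The means were 31.8 ± 2.67 (SD, n = 5) and 24.9 ± 2.28 CPM and the log2 fold change 0.34 (SE 0.085, interval 0.15 to 0.52, unadjusted p 0.00216, adjusted p 0.408), and the exact permutation p was again 0.00794. By DESeq2 the adjusted p was 0.0525, the lowest in a range of 0.0525 to 0.751 over 20 alternatives, so Pclo did not pass an adjusted p of 0.05 by either tool. With the neuron markers as a covariate its log2 fold change was 0.12 (unadjusted p 0.194). Of its exons, 925 bases (4.12%) overlap the genes Gm26918 and Gm26954.

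Its partner Bassoon and RIM2 had small positive differences that did not pass. Bsn (chr9:108096022-108190384) had 74.3, 78.9, 93.4, 81.2 and 91.3 CPM in NR and 69.5, 75.1, 52.1, 82.1 and 83.6 CPM in Vehicle, with a log2 fold change of 0.19 (SE 0.12, interval -0.075 to 0.46, adjusted p 0.631). Rims2 (chr15:39198261-39684372) had 15.4, 18.0, 15.7, 17.7 and 15.2 CPM in NR and 14.7, 16.6, 12.4, 14.4 and 15.6 CPM in Vehicle, with a log2 fold change of 0.14 (SE 0.10, interval -0.074 to 0.35, adjusted p 0.662). In both genes the groups overlapped, and Vehicle 3 was the lowest mouse. Cabp1 (chr5:115168689-115194381), the CaBP gene with wide use in neurons, had 115, 136, 129, 134 and 124 CPM in NR and 99.6, 138, 105, 93.2 and 135 CPM in Vehicle (log2 fold change 0.15, SE 0.11, interval -0.087 to 0.39, adjusted p 0.67). Its Vehicle values split into 2 mice at 135 to 138 CPM, Vehicle 2 and Vehicle 5, and 3 mice at 93.2 to 105 CPM. Leaving out 1 mouse at a time gave log2 fold changes of Cabp1 from 0.09 (without Vehicle 4, edgeR unadjusted p 0.401) to 0.24. The highest was without Vehicle 2 (edgeR unadjusted p 0.0399, adjusted p 0.456), the 1 of these 10 fits with an unadjusted p under 0.05. Without Vehicle 3 and Vehicle 4 it was 0.03 (edgeR unadjusted p 0.773).

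**Figure D4:**
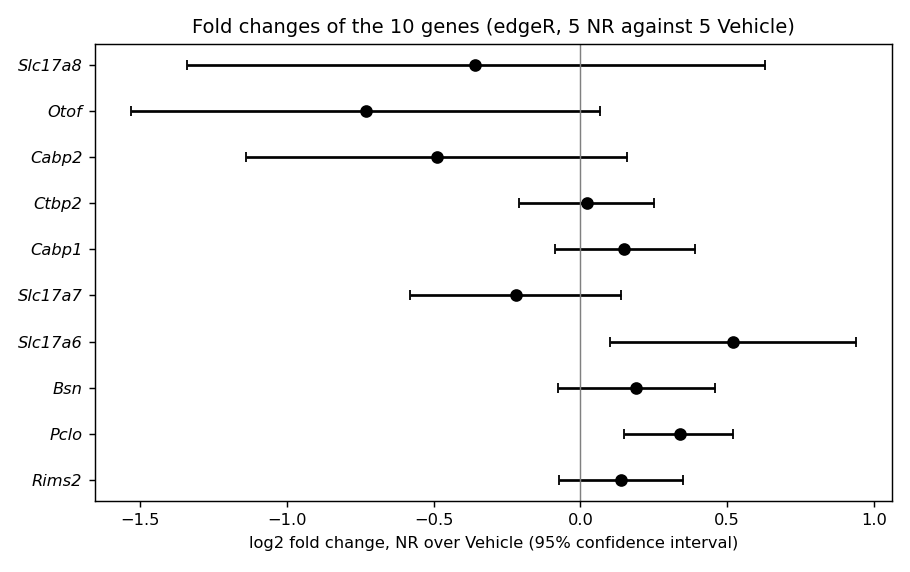
Log2 fold change of each gene, NR over Vehicle, from edgeR with its 95% confidence interval (5 mice a group). The intervals of Slc17a6 (0.10 to 0.94) and Pclo (0.15 to 0.52) exclude 0 before adjustment, and the intervals of the hair cell genes Slc17a8 and Otof are the widest.

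Counted together, 6 of the 10 genes were higher and 4 lower in NR, with a median log2 fold change of 0.08 beside -0.0092 over all 18329 genes tested. At an unadjusted p of 0.05, 2 of 10 (Slc17a6 and Pclo) were higher and 0 were lower, where 4.83% of all tested genes were higher and 4.88% lower. At an adjusted p of 0.05 edgeR called 0 of the 10 genes and 0% of all genes in either direction. DESeq2 also called 0 of the 10 at an adjusted p of 0.05 (0.265% of all genes higher and 0.255% lower), and at an unadjusted p it called the same number, 2 higher and 0 lower (3.5% and 3.08% of all genes). The groups did not overlap for 2 of the 10 genes, both with NR above Vehicle, beside 0.938% of all genes with NR above and 0.584% with NR below. With CPM of the total count alone these shares were 1.25% and 0.507%, and the count of 2 was the same. Without Vehicle 3 and Vehicle 4, 3 of the 10 genes were higher at an unadjusted p of 0.05 (Slc17a6, Pclo and Ctbp2) and 1 lower (Slc17a7), beside 4.11% and 5.58% of all genes. Without NR 2 as well the counts were 3 and 1, beside 6.11% and 6.22%. With the hair cell markers as a covariate they were 2 (Slc17a6 and Pclo) and 1 (Otof), beside 4.18% and 5.48%, and with the neuron markers 2 (Slc17a8 and Ctbp2) and 0, beside 3.85% and 6.83%.

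Because the markers of neurons and hair cells moved between mice, each gene was also read relative to the mean log2 CPM of a marker list. Relative to the hair cell markers, Slc17a8 differed between the groups by -0.016 (exact permutation p 0.96), Otof by -0.33 (p 0.0714 by the same exact test), Cabp2 by -0.17 (exact p 0.262) and Ctbp2 by 0.30 (exact p 0.159) on the log2 scale. Relative to the neuron markers, Pclo differed by -0.046 (exact p 0.603), Slc17a6 by 0.19 (exact p 0.365), Bsn by -0.17 (exact p 0.222) and Slc17a7 by -0.58 (exact p 0.0476, with 3 of 5 NR-treated mice below every Vehicle mouse). In 20 such comparisons, 2 had an exact p under 0.05, Slc17a7 against the neuron list and Slc17a6 against the hair cell list (0.84, exact p 0.0476), and neither was adjusted for the number of comparisons. With each mouse left out in turn, both had an exact p above 0.05 in 7 of 10 cases. The highest exact p was then 0.0873 for Slc17a7 and 0.151 for Slc17a6. The neuron comparison turned on how the list was summarised: with its median in place of its mean, the values were 0.16 for Pclo (exact p 0.0476), 0.39 for Slc17a6 (exact p 0.0317), 0.028 for Bsn and -0.37 for Slc17a7 (exact p 0.0873). With the mean of the neuron markers as a covariate in edgeR, the log2 fold change, given above for Pclo and Slc17a6, was -0.023 for Bsn and -0.28 for Slc17a7. Pclo was at 0.30 and Slc17a6 at 0.49 with the hair cell markers as the covariate, with unadjusted p-values of 0.00415 and 0.0328.

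**Figure D5:**
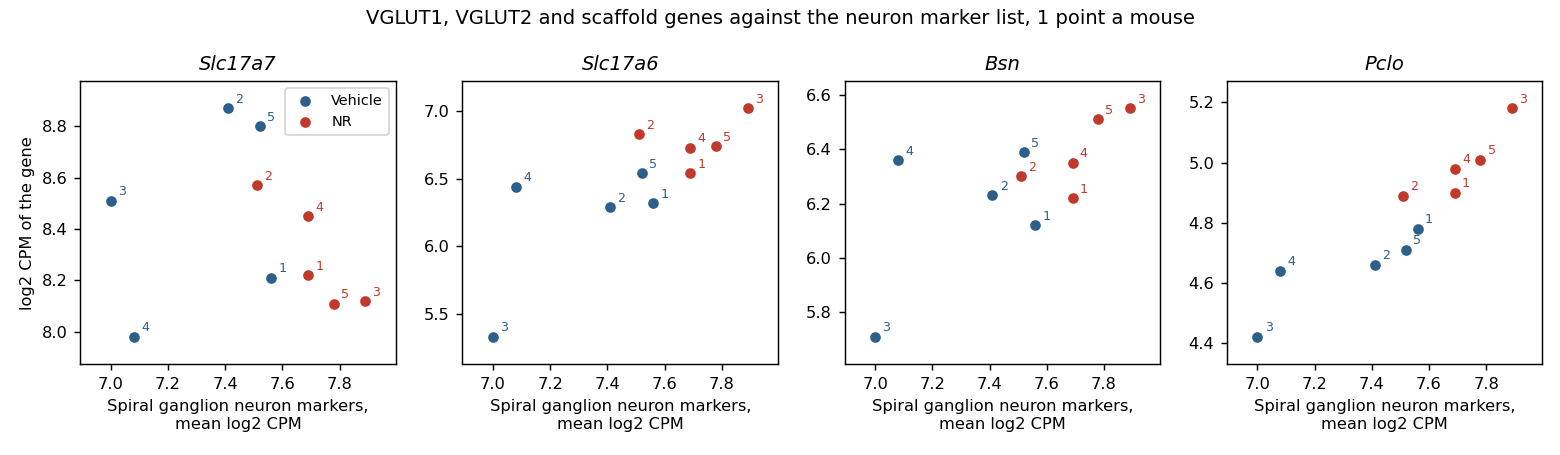
Log2 CPM of Slc17a7, Slc17a6, Bsn and Pclo against the mean log2 CPM of 18 spiral ganglion neuron markers, with 1 point a mouse and its replicate number (red NR, blue Vehicle). Slc17a6, Bsn and Pclo are lowest in Vehicle 3, which has the lowest marker level (7.00), and highest in NR 3, which has the highest (7.89), while Slc17a7 shows no such order.

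Across the 10 mice, Slc17a6 varied together with Pclo and Bsn. Slc17a6 and Pclo had a Pearson r of 0.884 (permutation p 0.00026, adjusted 0.007 over 45 pairs) and a Spearman rho of 0.867 (permutation p 0.002, adjusted 0.051), and r was 0.78 without the 2 mice farthest from the median and 0.80 for deviations from the group means. Slc17a6 and Bsn had an r of 0.93 (permutation p 0.00093, adjusted 0.014) and a rho of 0.697 (permutation p 0.03, adjusted 0.195), and r was 0.602 without the 2 farthest mice. Bsn and Pclo had an r of 0.774 (permutation p 0.009, adjusted 0.056) and a rho of 0.564 (permutation p 0.096, adjusted 0.362), and r was 0.317 without the 2 farthest mice, so this pair rests on them. Slc17a7, the VGLUT1 gene, had an r of -0.243 with Slc17a6 (permutation p 0.533, adjusted 0.585) and a rho of -0.297 (permutation p 0.406, adjusted 0.694). For Slc17a8, Otof, Cabp2 and Ctbp2 the 3 mice with many hair cell markers form a cluster of their own, so no pooled r is given. Within the other 7 mice r was -0.492 between Slc17a8 and Otof, 0.293 between Slc17a8 and Cabp2 and 0.561 between Otof and Cabp2, as a description in few mice, and with 83 to 105 reads a mouse the values of Slc17a8 there carry counting error.

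The genes whose log2 CPM over the 10 mice was most like that of each member, among 16539 genes with a mean of at least 1 CPM, are given as a description with no test, and for the hair cell genes the r over all 10 mice spans the cluster of 3. Those most like Otof were Myo6 and Myo15 (r 0.988 each), which encode myosins of hair cells, and r in the 7 mice with few hair cell markers was 0.785 and 0.851. Cabp2 was closest to Cib3 (r 0.968, and 0.849 in those 7 mice). Slc17a8 was closest to Pou3f4 (r 0.97), a transcription factor gene of otic mesenchyme, whereas r was 0.426 in the other 7 mice. Ctbp2 was closest to Twist1 (r 0.965, and 0.879 in the other 7 mice), a mesenchymal transcription factor gene. None of the 5 closest genes of Ctbp2, Otof or Slc17a8 is in the hair cell list, whereas those of Cabp2 include a gene of that list.

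On the neuronal side, Slc17a6 was closest to Rgs17 (r 0.99) and to Rph3a (r 0.989), which encodes the vesicle protein rabphilin. Bsn was closest to Sv2b (r 0.979), a synaptic vesicle gene. Pclo was closest to Crtac1 (r 0.971) and Mapt (r 0.968), the gene of the axonal protein tau. Cabp1 was closest to Gprin1 (r 0.987), Slc17a7 was closest to Myh7b (r 0.974) and the potassium channel subunit gene Kcnip1 (r 0.97), and Rims2 to Piwil2 (r 0.937).

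The partners of the ribbon synapse, 28 genes for the calcium channel, the release machinery, vesicle recycling and relatives of the CaBP proteins, moved both ways. Of 27 tested (Cabp5 was not, with 13 reads in all libraries), 16 were higher and 11 lower in NR, with a median log2 fold change of 0.051. At an unadjusted p of 0.05, 2 were higher and 3 lower, where 4.83% and 4.88% of all tested genes were, and 0 passed an adjusted p. The smallest p was that of Cacnb2, the β subunit of the hair cell calcium channel, at 22.8 ± 2.66 (SD, n = 5) CPM in NR and 28.2 ± 2.55 CPM in Vehicle (log2 fold change -0.32, SE 0.091, unadjusted p 0.00496, adjusted p 0.42). The pore-forming subunit gene Cacna1d, named here for its place in the channel, had 35.1 ± 5.96 and 45.4 ± 13.2 CPM (log2 fold change -0.39, SE 0.18, unadjusted p 0.0593). Hspa8, a chaperone that uncoats clathrin from vesicles and the most counted partner, had 1041 ± 56.9 and 885 ± 72.9 CPM (log2 fold change 0.22, unadjusted p 0.0121). The others under an unadjusted p of 0.05 were the liprin gene Ppfia3 (0.21, p 0.0279), Rab8b (-0.23, p 0.0169) and the calneuron gene Caln1 (-0.66, p 0.0427), by edgeR.

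Across the cleft, 22 genes of the afferent postsynapse and of synaptic adhesion were tested. In NR, 15 were higher and 7 lower, and the median log2 fold change was 0.08. At an unadjusted p of 0.05, 6 were higher and 0 lower, beside the same shares of all genes (4.83% and 4.88%), and 0 passed an adjusted p. Lrrtm1, a postsynaptic adhesion gene, had 13.8 ± 1.68 (SD, n = 5) CPM in NR and 8.92 ± 2.52 CPM in Vehicle (log2 fold change 0.61, SE 0.19, unadjusted p 0.00727, adjusted p 0.423). The presynaptic neurexin gene Nrxn3 had 30.2 ± 6.09 and 19.4 ± 6.26 CPM (0.62, unadjusted p 0.0163). Gria2, the glutamate receptor subunit GluA2 of the afferent fibre, had 55.5 ± 7.01 and 42.5 ± 8.11 CPM (log2 fold change 0.37, SE 0.13, unadjusted p 0.0184), and the scaffold gene Shank3 had 31.7 ± 2.65 and 25.9 ± 3.85 CPM (0.28, unadjusted p 0.0249). The most counted gene of the list, Nlgn2, a neuroligin, had 203 ± 12.3 and 208 ± 18.9 CPM (log2 fold change -0.044, unadjusted p 0.52). The remaining 2 under an unadjusted p of 0.05 were Nlgn1 (0.30, p 0.0448) and Adgrb1 (0.33, p 0.0463), by edgeR. Without NR 2, Vehicle 3 and Vehicle 4, in 7 mice, 3 were higher and 2 lower, where 6.11% and 6.22% of all genes were. The neuron markers, whose RNA is made by the same cells as much of this list, were higher in 13 of 18 genes (median log2 fold change 0.24), and their part in these values was not tested.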

How the data were processed

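Total RNA was taken from the cochlea of 10 mtKeima mice, 5 NR-treated and 5 non-treated. Novogene made libraries from mRNA that was purified from it with poly-T beads, and sequenced them. The authors deposited 1 table of whole-number read counts for each mouse, with no scaling applied. Per the submitters' processing notes, reads were aligned to mm10 with STAR 2.6.1d and counted with featureCounts 1.5.0. The files also give a gene length in bases per gene, as the authors deposited it, which equalled the merged exons of GENCODE M21 (GRCm38) for all 10 genes, and 54409 of 54532 gene identifiers were in that annotation.

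Counts (17060379 to 24419230 per mouse) were scaled with TMM factors, and 18329 genes passed filterByExpr and were tested with the quasi-likelihood test of edgeR 4.0.16 in R 4.3.3 (Benjamini-Hochberg over all tested genes, no covariate). SEs and 95% intervals are from this fit, whose common coefficient of biological variation was 0.207. Log2 CPM used a prior count of 2. Exact permutation tests were two-sided over all 252 labelings of the mice, and correlations used 100000 permutations. DESeq2 1.42.0, other filters and scalings, marker covariates, left-out mice and a replicate block were tried. Each pair of libraries differed by more than counting noise (chi-square per gene at least 10.8 over 45 pairs). Pairs with Vehicle 2 ranged from 73.1 (with NR 4) to 118 (with Vehicle 4). The highest value of a pair without Vehicle 2 was 55.5 (Vehicle 1 and Vehicle 4). Nothing in the labels tells separate litters or cages apart.

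The members and the gene lists were chosen with earlier results of these data known. The text names all 10 genes, the 4 smallest p-values and the most counted gene of the partner and postsynaptic lists, the 3 most counted markers of a list (1 of them is not reported here), and the 5 genes most like each member (of which the closest 1 or 2 are printed). Genes of other lists named for a count of 5 or fewer, Cacna1d, Prph and Slc26a5 were chosen after their values were seen.

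Of the further marker lists, adjusted p called 0 genes. At an unadjusted p of 0.05, 0 were higher and 2 of 20 lower for hair cells (median log2 fold change -0.46), 7 higher and 1 lower of 18 for spiral ganglion neurons, 0 and 8 of 12 for supporting cells (-0.61), 0 and 2 of 8 for Schwann cells (0.12), 0 and 0 of 8 for central glia (-0.11), 0 and 0 of 3 for central neurons (0.21), 5 and 0 of 6 for skeletal muscle (3.77), 4 and 0 of 5 for adipocytes (2.36), 0 and 0 of 9 for bone and marrow (-0.085), and 0 and 1 of 4 for sex genes (-0.061).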

Additional observations from a re-analysis of the deposited data

Results flagged for a closer look

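Among 20 tests of a gene in 1 group for a mouse far from the other 4, 2 passed Dixon's critical value of 0.71, where chance gives about 1 in 20. Slc17a8 in NR replicate 2 was 12.7 CPM, the highest of its group, and its gap to the next mouse was 0.84 of the range of the group. Slc17a6 in Vehicle replicate 3 was 40.0 CPM, the lowest of its group, with a gap of 0.72 of the range. NR 2 was the treated mouse with the highest hair cell marker level (3.94), and Vehicle 3 had the lowest neuron marker level (7.00). Without Vehicle 3 and Vehicle 4 the log2 fold change of Slc17a6 was 0.38.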

How the results depend on the processing

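Over 20 alternatives for each of the 10 log2 fold changes, 171 of 200 values kept their direction and their side of an unadjusted p of 0.05, and 14 changed sign. With the neuron markers as a covariate the sign changed for Slc17a8 (1.1), Otof (0.5), Cabp2 (0.3), Cabp1 (-0.00096) and Bsn (-0.023), and Pclo (0.12) and Slc17a6 (0.18) no longer had an unadjusted p of 0.05 or less. With the hair cell markers it changed for Slc17a8 (0.16). Without Vehicle 3 and Vehicle 4 it changed for Slc17a8 (0.51), Otof (0.057) and Cabp2 (0.018), and without NR 2 as well for Slc17a8 (0.075). Leaving out each mouse in turn gave -0.018 to 0.13 for Ctbp2, 0.29 to 0.38 for Pclo (unadjusted p at most 0.00409) and 0.37 to 0.61 for Slc17a6 (at most 0.0391). Relative to hair cell markers it gave -0.2 to 0.1 for Slc17a8 and -0.24 to 0.31 for Slc17a7, and relative to neuron markers -0.08 to 0.012 for Pclo. The median of the marker list gave 0.017 for Slc17a8 relative to hair cells, and 0.028 for Bsn and 0.16 for Pclo relative to neurons. The count of the 10 genes lower at an unadjusted p of 0.05 was 1 with every gene that had at least 1 read, with the hair cell covariate, without Vehicle 3 and 4, and without NR 2 as well, and 0 to 2 when a mouse was left out. The partners then had 1 to 4 higher and 2 to 5 lower, and the postsynaptic genes 4 to 7 higher and 0 to 1 lower. Without NR 2, Vehicle 3 and Vehicle 4, 3 postsynaptic genes were higher and 2 lower. The cause of these changes was not tested, and the neuron marker covariate itself differed between the groups. The replicate numbers do not pair the mice: same-numbered mice had correlations of 0.17, -0.118, -0.22, 0.0163 and 0.133 in their deviations from the group means. With the replicate block the log2 fold changes were 0.34 for Pclo (unadjusted p 0.013) and 0.56 for Slc17a6 (0.037), and 2 of the 10 genes were higher and 0 lower, as without it. Depth limits mainly Slc17a8, with 83 to 315 reads a mouse.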
